A study of Homo sapiens with 18 samples.

Results

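Glutamate and aspartate tRNAs carry the acidic amino acids to the ribosome. The 45 of 2462 small RNA features whose names start with tRNA-Glu- or tRNA-Asp- were followed through cells and extracellular vesicles (EVs). They comprise 10 rows with the anticodon CTC and 17 with TTC for glutamate, 16 with GTC for aspartate, and 2 rows named Glu-GAA, a phenylalanine anticodon. In a name such as tRNA-Glu-CTC-1-2, the first number is the isodecoder, a mature sequence shared by several genes, and the second is the gene copy. The 45 rows form 27 such groups, with 6 rows that carry a chromosome or scaffold in place of an isodecoder number each standing alone. Rows were taken by name.

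The source was HEK293T, a human embryonic kidney cell line. Wild type, ATG7-/- and ATG12-/- cultures were grown with fetal bovine serum and then kept for 24 h without it, in all groups alike. RNA was taken from EVs and from cells, which gave 6 groups of 3 libraries, labelled as biological replicates: wild type, ATG7-/- (clone F2) and ATG12-/- (clone D9), each as cells and as EVs. Each knockout is 1 clone, so the effect of the deletion and that of the clone cannot be told apart, and the ATG7 and ATG12 mRNAs were not analysed here. ATG7 is the activating enzyme, and ATG12 part of the ligase complex, that attach LC3 and its relatives to membrane lipids in autophagy. The comparisons ask which small RNAs differ between vesicles and the cells that released them, and between vesicles with and without this conjugation machinery.

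Cell libraries held 1188388 to 1804089 recovered reads and vesicle libraries 1881080 to 3382605, so these totals do not overlap between compartments. They are sums over rows, and a read that matches several gene copies may enter them more than once. Whether the sequencing depths overlap is therefore not known. Values, called normalised reads here, are read counts over a library's size factor, and 1 read equals 0.477 to 0.824 in cells and 1.17 to 1.89 in vesicles. They are relative levels within a library: more vesicles and more RNA per vesicle cannot be told apart. Tests were run on rows at 10 or more in 3 or more libraries of a fit, and a row was called where limma's p, adjusted over all features, was below 0.05. Differences are on the log2(value + 1) scale with their standard error (SE). Of the 45 rows, 41 were tested in vesicles and between vesicles and cells, and 31 in cells alone. The 4 rows never tested, Glu-CTC-5-1, Glu-TTC-9-1, Glu-TTC-11-1 and Asp-GTC-6-1, did not exceed 7.23 in any library.

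tRNAs are transcribed by RNA polymerase III, folded into a cloverleaf and charged at the 3′ end. Under stress, angiogenin can cut mature tRNAs in the anticodon loop into fragments, and 5′ fragments of glutamate and glycine tRNAs are known from body fluids and vesicles. The 2 glutamate anticodons read the GAA and GAG codons, and the aspartate anticodon, whose wobble base can be changed to queuosine, reads both aspartate codons. The libraries do not say whether a read came from a whole tRNA or a fragment.

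Both Glu-TTC genes with a reference sequence in hand (GENCODE release 29, GRCh38) are shown because they are alike in sequence and far apart in level. tRNA-Glu-TTC-3-1 lies on the plus strand at chr1:16872583-16872654, in an exon of the noncoding gene BX284668.2 and inside CROCC. tRNA-Glu-TTC-4-2 lies on the minus strand at chr1:161422093-161422164, opposite an exon of AL592295.4. Each is written 5′ to 3′ as its gene, with the anticodon in capitals.
tRNA-Glu-TTC-3-1: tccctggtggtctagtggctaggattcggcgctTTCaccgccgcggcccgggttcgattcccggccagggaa
tRNA-Glu-TTC-4-2: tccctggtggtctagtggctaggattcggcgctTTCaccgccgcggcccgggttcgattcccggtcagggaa
Of 72 bases, 1 differs, C65T, counted from the 5′ end with TTC-3-1 first, and the first 64 are shared. A read of 50 bases that starts at the 5′ end stops before that position. In wild type vesicles TTC-4-2 stood at 104342 ± 5165 normalised reads and TTC-3-1 at 897 ± 13.7 (SD, n = 3). In wild type cells the values were 3261 ± 312 and 489 ± 75.3. How reads that match several genes were assigned is not given in the sources used here, so the split of reads between near-identical rows is uncertain throughout.

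The gene copies showed this directly. RefSeq (GRCh38.p14) matched 31 of the 45 rows, 27 as tRNA genes and 4 as pseudogenes, and 11 of the matched rows lie outside any GENCODE gene. Copies Glu-CTC-1-2 to 1-5 and Asp-GTC-2-1 to 2-5 alternate in a repeat on chromosome 1, from 161440825 to 161470486, within the noncoding gene AL592295.3. Glu-CTC-1-1 lies in an intron of HJV on chromosome 1 and Glu-CTC-1-6 and 1-7 between genes on chromosome 6. Across the 4 repeat copies of Glu-CTC-1, the variance of the reads was at most 0.00441 of their mean in any of the 18 libraries. Independent counts would give a ratio near 1, so these 4 rows are not separate measurements. Over all 7 copies the ratio reached 0.0718 in vesicles and 14.8 in cells.

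Asp-GTC-2 was different. In cells copies 2-1 to 2-5 agreed within 1.61% in every library, and in vesicles within 12.6%. Copies 2-6 to 2-11, which lie elsewhere on chromosomes 6, 12 and 17, held other values. Over all 11 copies the variance reached 504 times the mean in cells and 126 times in vesicles, so these 11 rows did not all share the same reads. Across copies 2-1 to 2-5 alone it was at most 0.0269 times the mean in cells and 1.18 times in vesicles. Asp-GTC-2-11 (chromosome 17, in an exon of LINC00324) held 315, 331 and 317 in wild type cells and 92.5, 76.1 and 108 in wild type vesicles. Asp-GTC-2-8 (chromosome 12, in an intron of LTA4H) held 184, 228 and 163 in wild type cells and 596, 444 and 524 in wild type vesicles. The first was lower and the second higher in vesicles, without overlap.

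**Figure D1:**
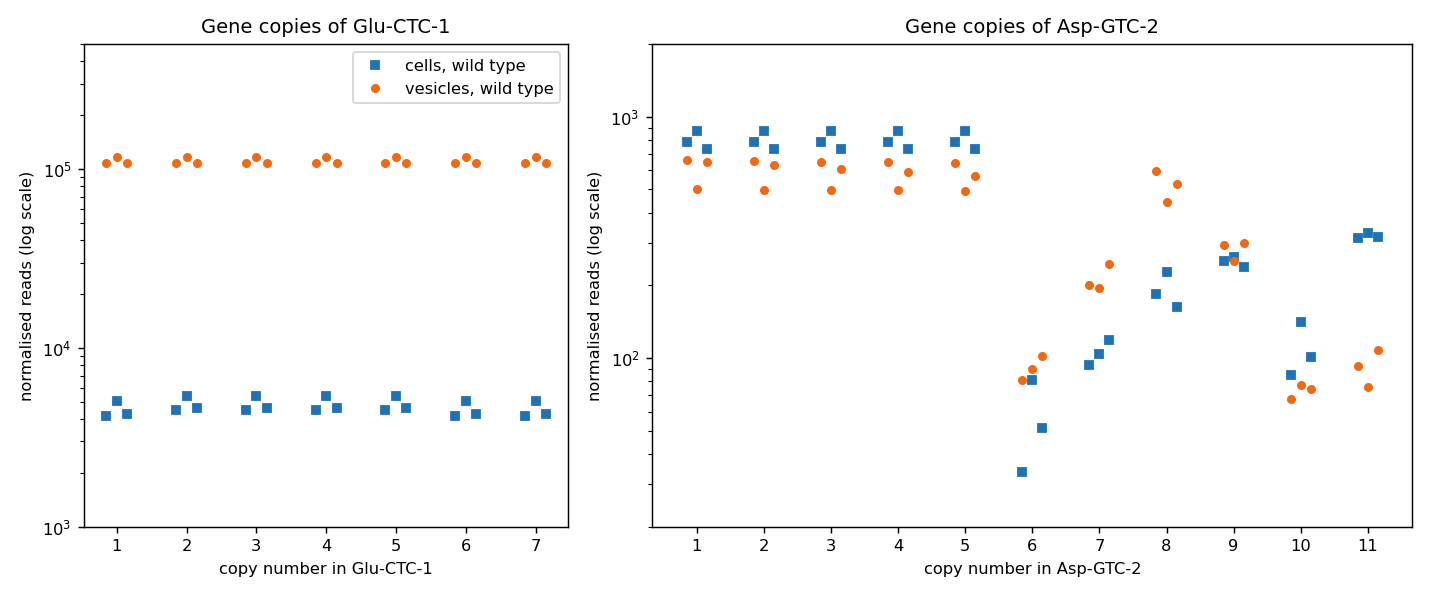
Normalised reads (log axis) of each gene copy of Glu-CTC-1 (left) and Asp-GTC-2 (right) in the 3 wild type cell libraries (squares) and the 3 wild type vesicle libraries (circles). The 7 Glu-CTC-1 copies form level lines, while Asp-GTC-2-6 to 2-11 scatter, with 2-8 higher and 2-11 lower in vesicles.

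Glutamate rows dominated the tRNA reads of the vesicles. Counting every row, Glu-CTC took 14.5% ± 0.907 of the tRNA reads in wild type cells and 55.1% ± 1.45 in wild type vesicles (SD, n = 3). Glu-TTC took 5.31% ± 0.439 and 16.0% ± 0.308. Asp-GTC went the other way, with 2.37% ± 0.0955 in cells and 0.536% ± 0.0477 in vesicles. Together the rows held 22.2% ± 1.41 of the tRNA reads in wild type cells and 71.7% ± 1.77 in wild type vesicles, and 5.26% ± 0.662 and 35.8% ± 3.50 of all reads.

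In the knockout vesicles these rows took more. Their share of all reads was 61.8% ± 1.36 in ATG7-/- and 45.2% ± 1.45 in ATG12-/- vesicles, and no library of one genotype reached the range of another. Of the tRNA reads they held 77.2% ± 0.489 and 76.9% ± 0.480. The Asp-GTC rows alone went the other way, with 0.296% ± 0.0286 and 0.367% ± 0.0124 of the tRNA reads. Every library of both knockouts lay below every wild type vesicle library in this Asp-GTC share. Such a share falls when other tRNA rows rise, and no Asp-GTC row was called lower in the vesicles of either knockout. Of all reads, Asp-GTC rows held 0.240% to 0.298% in wild type, 0.221% to 0.262% in ATG7-/- and 0.199% to 0.229% in ATG12-/- vesicles, so ATG7-/- overlapped the wild type. In cells all Glu and Asp rows together held 19.5% ± 5.0 of the tRNA reads in ATG7-/- and 27.8% ± 3.59 in ATG12-/-. Replicate 2 of the ATG7-/- cells lay apart at 13.7%. With each isodecoder counted once, by its highest row, the share was 16.1% ± 1.03 in wild type cells and 66.8% ± 1.93 in wild type vesicles. The order of the glutamate anticodons turned with this count: Glu-CTC then held 5.59% ± 0.416 in wild type cells and 24.5% ± 0.869 in wild type vesicles, and Glu-TTC 9.27% ± 0.545 and 41.5% ± 1.10. Glu-TTC-4-2 and the near-identical row Glu-TTC-chr1-138, with means of 104342 and 104222 normalised reads in wild type vesicles, both enter that count. In wild type vesicles, though not in wild type cells, the turn rests on counting both. Asp-GTC held 1.22% ± 0.127 in wild type cells and 0.771% ± 0.0565 in wild type vesicles, a smaller fall than with every row counted. Which anticodon held more reads therefore depends on how copies are counted.

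**Figure D2:**
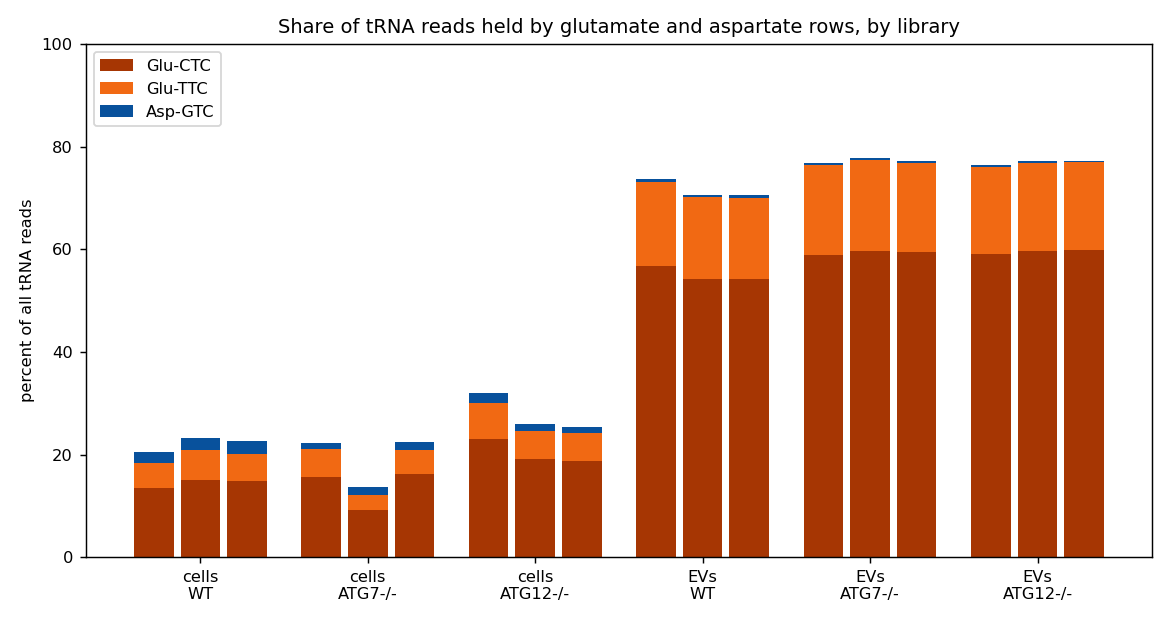
Percent of all tRNA reads held by Glu-CTC, Glu-TTC and Asp-GTC rows, stacked, 1 bar per library in 6 groups of 3, every row counted. Vesicle bars reach 70.6% to 77.7% and cell bars 13.7% to 31.9%.

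Wild type vesicles were set against wild type cells row by row. Glutamate rows were higher in vesicles with 1 clear exception, and aspartate rows were split, the lower ones all copies of Asp-GTC-2. Of the 41 rows tested, 31 were called higher, 8 lower and 2 were not called, while over all 905 features tested 38.9% were called higher and 42.9% lower. The median difference of the 41 rows was 2.98, against -0.13 over all features and 0.43 over the 439 other tRNA rows. Among 76 rows of other isotypes known for 5′ fragments (Gly-GCC, Gly-CCC, Val-CAC, Val-AAC, Lys-CTT and His-GTG), 46 were higher and 24 lower, with a median of 1.17. The filter bears on these counts: 10 of the 31 higher rows did not reach it in cells alone and were tested because of their level in vesicles, which set their direction. Of the 31 rows that passed in both compartments, 21 were higher, 8 lower and 2 not called, with a median of 1.53. Over the 801 features that passed in both, 310 were higher and 347 lower, with a median of -0.08.

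All 9 tested Glu-CTC rows were higher, by 3.13 to 4.63, and none was lower in limma's test (0 at an unadjusted p under 0.05, and 0 in edgeR and in DESeq2). The 8 Glu-CTC rows that passed the filter in both compartments were higher by 3.38 to 4.63. Glu-CTC-1-2, which stands for its copies, held 4506, 5394 and 4610 in wild type cells and 107969, 116974 and 108111 in wild type vesicles. Every vesicle library lay far above every cell library, and the difference was 4.52 (SE 0.17, adjusted p = 3.07e-16). Glu-CTC-2-1, a separate isodecoder on chromosome 1, held 1721, 2234 and 1889 in cells and 20259, 20675 and 19628 in vesicles, a difference of 3.38 (SE 0.15, adjusted p = 3.08e-15).

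Glu-TTC isodecoders ranged more widely, with 13 of 15 rows higher, 1 lower and 1 not called. Of the 10 Glu-TTC rows that passed the filter in both compartments, 8 were higher, 1 lower and 1 not called. Glu-TTC-4-2 held 3192, 3601 and 2989 in wild type cells and 100861, 110276 and 101887 in wild type vesicles, and differed by 5.0 (SE 0.20, adjusted p = 7.53e-16). The row Glu-TTC-chr1-138 held nearly the same values, within 0.767% of Glu-TTC-4-2 in every library. The row on an unplaced chromosome 1 scaffold, tRNA-Glu-TTC-chr1_KI270713v1_random-1, rose from 65.0, 73.9 and 59.1 to 2663, 1979 and 2083, by 5.06 (SE 0.20, adjusted p = 3.07e-16). These rows stood at the top of the isotype.

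Glu-TTC-2-1 was higher by 3.26 (SE 0.29), with 562, 1183 and 883 in wild type cells and 7373, 8552 and 8198 in wild type vesicles. Glu-TTC-1-1 was higher by 1.53 (SE 0.34), with 435, 992 and 553 against 1675, 1923 and 1784. Glu-TTC-3-1, 1 base from Glu-TTC-4-2, was higher by only 0.89 (SE 0.16), with 522, 542 and 403 against 900, 882 and 909. Wild type cell replicate 2 was the highest of its group for all of these rows. Glu-TTC-8-1 and Glu-TTC-chr1-127 did not reach the filter in cells alone, with at most 7.30 and 7.92 in the wild type, and reached 182 in vesicles. They were tested because of their level in vesicles, which set the direction of their differences, 4.32 (SE 0.20) and 4.48 (SE 0.20).

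Glu-TTC-5-1 was the glutamate row called lower in vesicles. It held 2674, 2680 and 2433 in wild type cells and 162, 129 and 128 in wild type vesicles, a difference of -4.21 (SE 0.17, adjusted p = 4.52e-16). In cells it stood at 0.799 ± 0.0486 of Glu-TTC-4-2, and in vesicles at 0.00134 ± 0.000231 of it (SD, n = 3). Its direction was kept under each scaling tried.

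**Figure D3:**
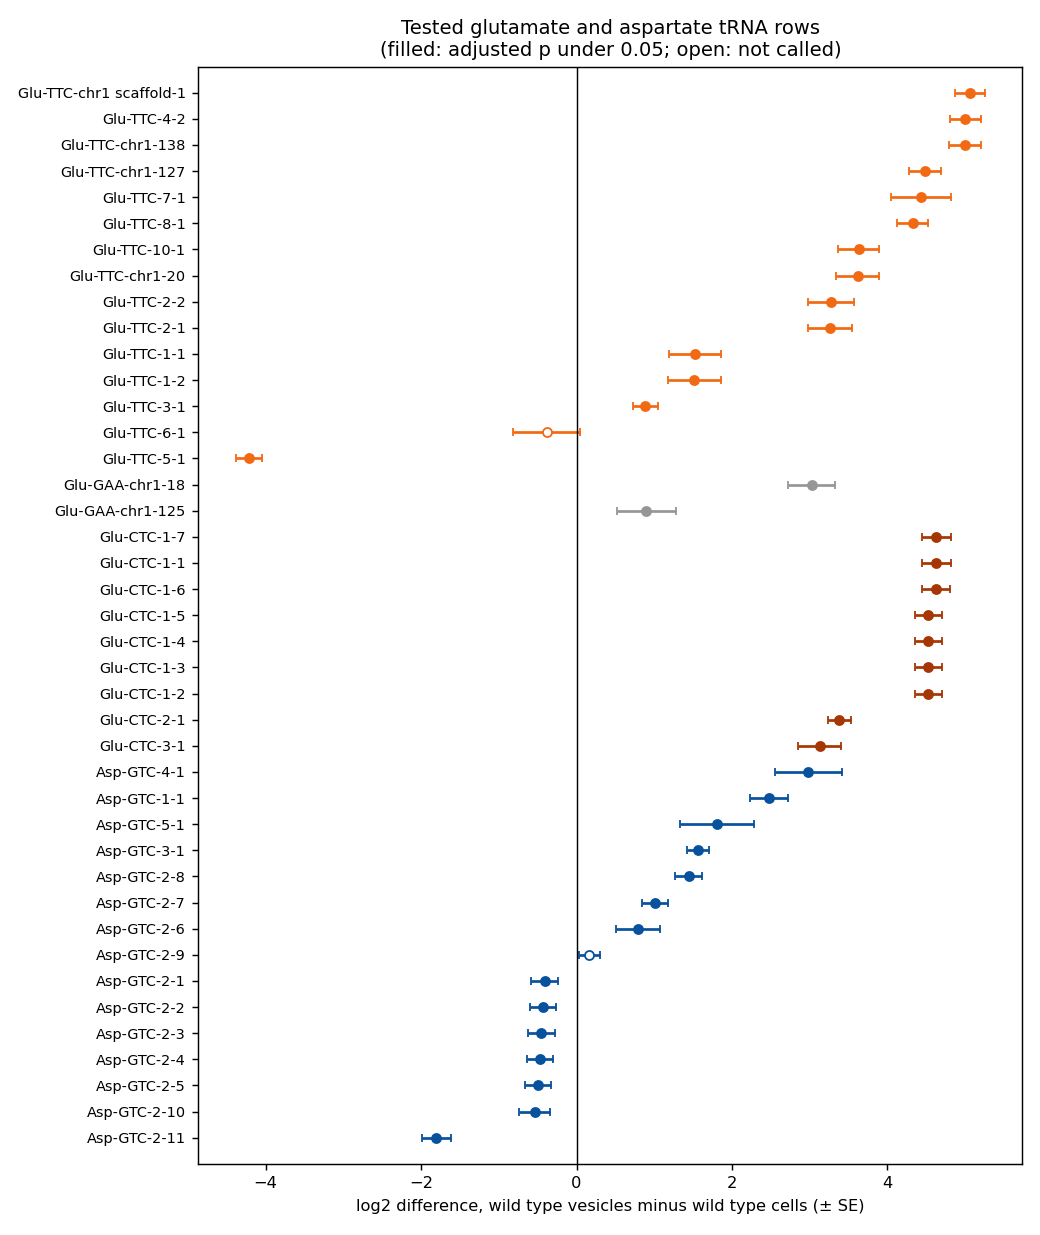
Log2 difference, wild type vesicles minus wild type cells, with SE, for the 41 tested rows, grouped by anticodon. Filled points are called and open points are not; Glu-TTC-5-1 at -4.21 is apart from the other glutamate rows, and Asp-GTC rows lie on both sides of 0.

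Of 15 tested Asp-GTC rows, 7 were higher, 7 lower and 1 was not called. All 7 lower rows were among the 11 copies of Asp-GTC-2, of which 3 were higher and 1 was not called. The tested rows of the other Asp-GTC isodecoders were all higher, but only Asp-GTC-1-1 and Asp-GTC-3-1 of these reached the filter in cells alone. The rest were tested because of their level in vesicles, which set their direction. Of the 13 Asp-GTC rows that passed the filter in both compartments, 5 were higher and 7 lower. Asp-GTC-1-1 (chromosome 12, in an intron of LINC02453) was among the higher rows, with 413, 662 and 628 in wild type cells and 2557, 3475 and 3374 in wild type vesicles. It differed by 2.48 (SE 0.24, adjusted p = 4.39e-09). Asp-GTC-3-1 was higher by 1.56 (SE 0.14), with 103, 114 and 116 against 354, 297 and 340. Neither overlapped between cells and vesicles.

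Asp-GTC-2-1, standing for the repeat copies, held 787, 871 and 734 in wild type cells and 661, 502 and 649 in wild type vesicles. It was lower by a small margin, -0.41 (SE 0.17, adjusted p = 0.034), although the Glu-CTC-1 copies of the same repeat were far higher. The ratio of Glu-CTC-1-2 to Asp-GTC-2-1 was 6.06 ± 0.299 in wild type cells and 188 ± 39.3 in wild type vesicles (SD, n = 3). Asp-GTC-2-11 differed by -1.80 (SE 0.18, adjusted p = 7.69e-09), and Asp-GTC-2-8 was higher by 1.44 (SE 0.18, adjusted p = 1.21e-07).

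Without cell replicate 2 or without vesicle replicate 2, 3 rows were called lower in place of 8, and Asp-GTC-2-1 stood at -0.34 (adjusted p = 0.114) and -0.28 (adjusted p = 0.173). It also lost its call without cell replicate 1 (adjusted p = 0.0612), in edgeR (adjusted p = 0.0794) and with TMM factors over all features or from microRNAs (adjusted p = 0.0872 and 0.388). Scaled to library totals, which shifted the median feature by -1.51, 22 rows were higher and 13 lower. Glu-TTC-3-1 then turned to -0.63, and Glu-TTC-1-1, Asp-GTC-3-1 and Asp-GTC-2-8 were no longer called, at 0.01, 0.05 and -0.071, while Glu-CTC-1-2 and Glu-TTC-4-2 stayed higher. TMM factors from features other than tRNA shifted the median feature by 1.45 and gave 39 rows higher and 1 lower, with Asp-GTC-2-1 at 1.05 and Asp-GTC-2-11 no longer called, at -0.35 (adjusted p = 0.139), and factors from microRNAs gave 32 and 2.

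The same comparison within each knockout had glutamate rows higher and aspartate rows higher or not called. In ATG7-/- vesicles against ATG7-/- cells, 33 of 41 rows were higher and 1 lower, where 40.0% of 905 features were called higher and 42.8% lower. In ATG12-/- vesicles against ATG12-/- cells, 32 were higher and 1 lower, where 39.2% were higher and 41.1% lower. Of the 31 rows that passed the filter in both compartments, 23 were higher and 1 lower in ATG7-/-, and 22 and 1 in ATG12-/-. The lower row was Glu-TTC-5-1 in both, at -4.06 (SE 0.17) and -3.66 (SE 0.17). With library totals the counts were 24 higher and 12 lower in ATG7-/-, and 23 and 14 in ATG12-/-, with median shifts over all features of -1.96 and -2.08. Calls lost were those of Asp-GTC-2-8 (0.21 in both), Asp-GTC-3-1 in ATG7-/- (0.005) and Glu-TTC-1-1 in ATG12-/- (0.06), while Glu-TTC-3-1 turned lower in both and Asp-GTC-3-1 in ATG12-/- (-0.65).

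Glu-CTC-1-2 was higher by 5.74 (SE 0.17) in ATG7-/- and by 4.58 (SE 0.17) in ATG12-/-, and Glu-TTC-4-2 by 6.30 (SE 0.20) and 5.03 (SE 0.20). Asp-GTC-1-1 was higher by 4.24 (SE 0.24) and 3.94 (SE 0.24). Asp-GTC-2-1 was not called in either, at 0.27 (SE 0.17) and 0.02 (SE 0.17), nor was Asp-GTC-2-11, at -0.22 (SE 0.18) and 0.18 (SE 0.18). No Asp-GTC row was called lower in limma's test in either knockout (0 at an unadjusted p under 0.05, 0 in DESeq2, and in edgeR 1 in ATG7-/- and 0 in ATG12-/-).

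**Figure D4:**
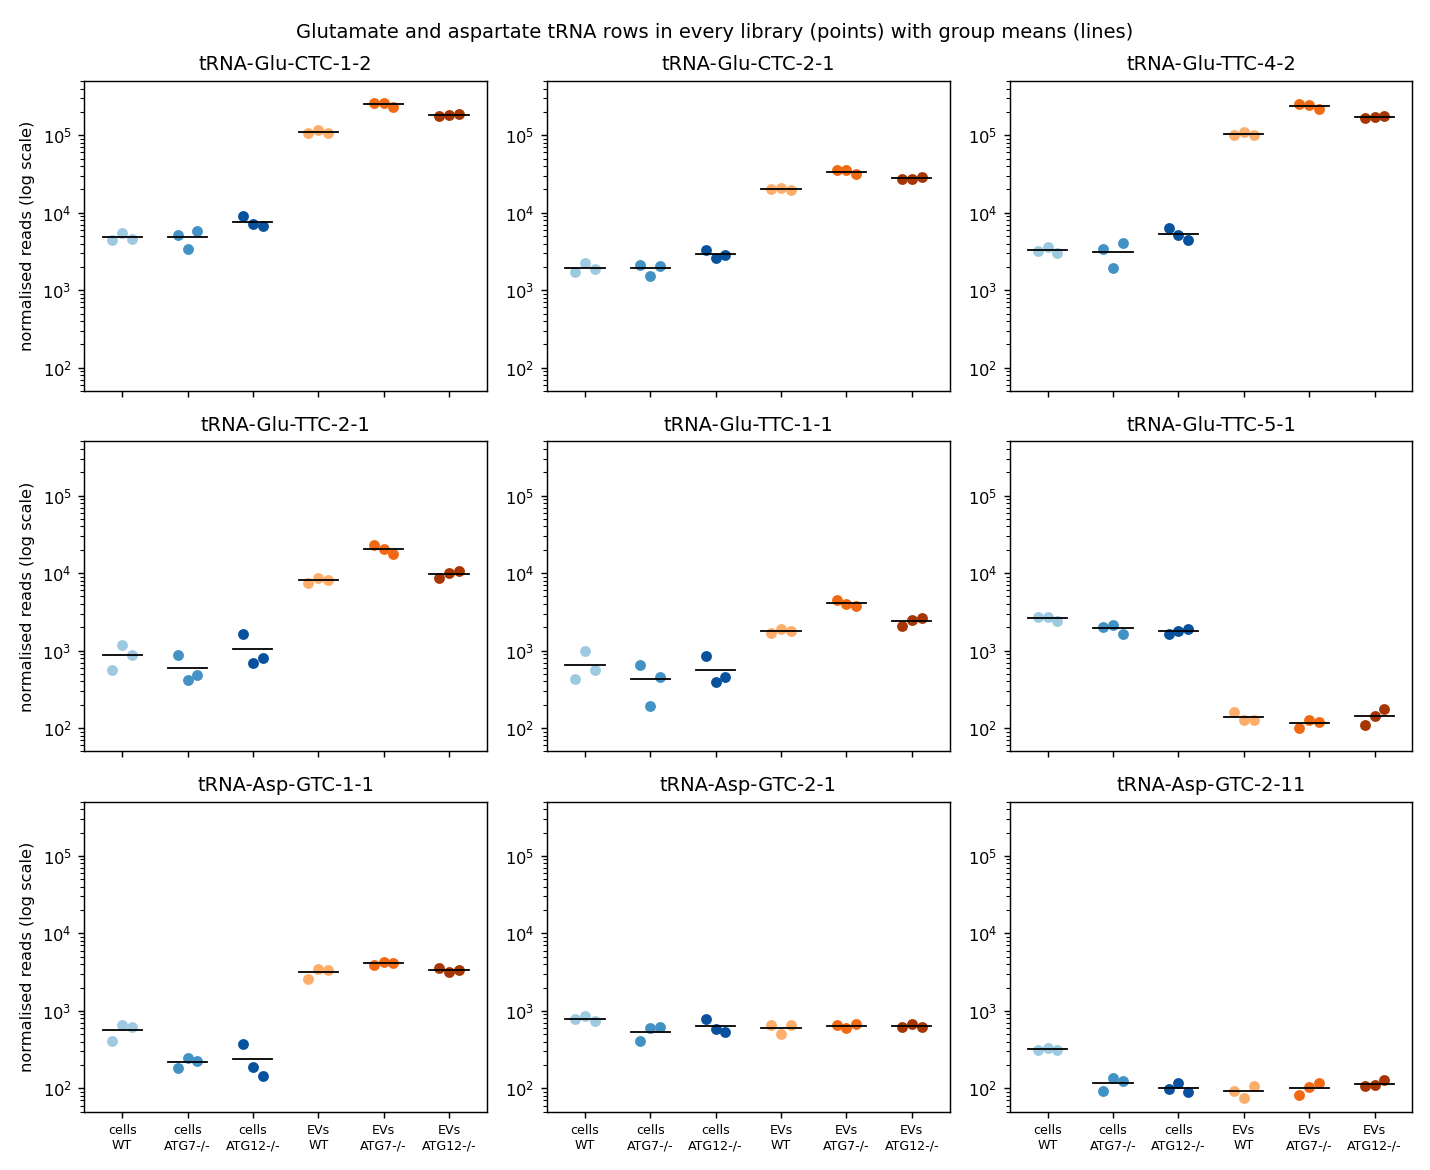
Normalised reads (log axis) of 9 rows in each of the 18 libraries (points), with group means (lines); EVs are vesicles. Glu-CTC and Glu-TTC-4-2, 2-1 and 1-1 rise from cells to vesicles and from wild type to ATG7-/- vesicles, Glu-TTC-5-1 is low in vesicles, and Asp-GTC-1-1 and 2-11 are low in knockout cells.

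ATG7-/- vesicles were then compared with wild type vesicles. Most glutamate rows rose, and 1 aspartate row was called, although with TMM factors from features other than tRNA 40 of the 41 rows were called higher. Of 41 rows, 24 were called higher and none lower (0 lower at an unadjusted p under 0.05, and 0 in edgeR and DESeq2), where 33.5% of 850 features were called higher and 28.9% lower. By anticodon, 9 of 9 Glu-CTC, 13 of 15 Glu-TTC and 1 of 15 Asp-GTC rows and 1 Glu-GAA row were higher. The medians of the first 3 were 1.18, 1.19 and 0.09. The median was 0.47 over 418 other tRNA rows, 0.60 over the 74 other 5′ fragment rows and 0.12 over all features. Of the other tRNA rows 217 were called higher and 4 lower, and of the other 5′ fragment rows 59 higher and 0 lower. A rise in these vesicles was therefore not particular to the glutamate rows.

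Glu-CTC-1-2 held 262978, 257809 and 233402 in ATG7-/- vesicles, all above the wild type values given above, and rose by 1.18 (SE 0.08, adjusted p = 1.3e-07). Glu-TTC-4-2 held 249595, 244543 and 219179 and rose by 1.19 (SE 0.09, adjusted p = 1.34e-07). Glu-TTC-2-1 held 23024, 20317 and 17532 and rose by 1.33 (SE 0.12, adjusted p = 7.03e-07). Replicate 3 was the lowest of the 3 libraries for each of these rows, still more than 2 times the wild type mean.

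Glu-TTC-1-1 rose by 1.19 (SE 0.12), the scaffold row by 0.98 (SE 0.12), Glu-TTC-8-1 by 0.92 (SE 0.15), Glu-CTC-2-1 by 0.75 (SE 0.09), Glu-TTC-chr1-127 by 0.70 (SE 0.15) and Glu-TTC-3-1 by 0.41 (SE 0.11). Glu-TTC-5-1 held 98.9, 126 and 119, below every wild type vesicle library, and was not called (-0.28, SE 0.20). Among aspartate rows Asp-GTC-1-1 was called, with 3927, 4268 and 4197, by 0.41 (SE 0.13, adjusted p = 0.0112). Asp-GTC-2-1 (665, 593 and 671), Asp-GTC-2-8 (543, 499 and 568) and Asp-GTC-3-1 (332, 300 and 334) overlapped the wild type values. Their differences were 0.10 (SE 0.13), 0.05 (SE 0.13) and -0.03 (SE 0.13).

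The count of called rows was 24 whichever library was left out. Scaling to library totals shifted the median feature by -0.37 and gave 20 higher and 4 lower, and the calls of Asp-GTC-1-1, Glu-TTC-3-1 and Glu-TTC-chr1-127 were lost (0.03, 0.04 and 0.32). Asp-GTC-1-1 and Glu-TTC-3-1 also lost theirs with TMM factors over all features (0.23 each). Factors from features other than tRNA shifted it by 1.21, and Asp-GTC-3-1 and Glu-TTC-5-1 were then called higher, at 1.18 and 0.93.

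ATG12-/- vesicles showed smaller rises over wild type vesicles, in a comparison that shares its wild type libraries with that of ATG7-/-. Of 41 rows, 19 were higher and none lower (0 lower at an unadjusted p under 0.05, and 0 in edgeR and DESeq2), where 22.6% of 850 features were higher and 21.1% lower. They were 9 of 9 Glu-CTC rows, 9 of 15 Glu-TTC rows and 1 Glu-GAA row. No Asp-GTC row was called in either direction (0 at an unadjusted p under 0.05, and 0 in edgeR and DESeq2). The median was 0.71 for Glu-CTC, 0.44 for Glu-TTC and 0.05 for Asp-GTC, against 0.15 over other tRNA rows and 0.05 over all features. The 74 other 5′ fragment rows had a median of 0.42, close to that of Glu-TTC, with 37 higher and 15 lower.

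Glu-CTC-1-2 held 175664, 182100 and 188094 and rose by 0.71 (SE 0.08, adjusted p = 2.79e-05). Glu-TTC-4-2 held 165369, 171722 and 176972 and rose by 0.72 (SE 0.09, adjusted p = 2.94e-05). Both lay above every wild type and below every ATG7-/- vesicle library. Glu-TTC-8-1 and the scaffold row each rose by 0.59 (SE 0.15 and 0.12), Glu-CTC-2-1 by 0.47 (SE 0.09), Glu-TTC-1-1 by 0.42 (SE 0.12) and Glu-TTC-3-1 by 0.40 (SE 0.11). Glu-TTC-2-1 (8732, 9956 and 10669) did not pass, at 0.28 (SE 0.12, adjusted p = 0.0763), and Glu-TTC-5-1 (109, 143 and 177) stood at 0.02 (SE 0.20).

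Library totals moved the median by -0.35 and left 9 rows higher with 5 lower. The calls of Glu-CTC-2-1, Glu-TTC-1-1, Glu-TTC-3-1, Glu-TTC-8-1 and the scaffold row were lost, at 0.12, 0.07, 0.04, 0.23 and 0.23. Factors from features other than tRNA moved it by 0.55 and gave 35 higher rows, Asp-GTC-3-1 among them at 0.51. Glu-TTC-1-1 lost its call without ATG12-/- vesicle replicate 2 (adjusted p = 0.0546) or 3 (adjusted p = 0.071).

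The knockout vesicles also differed from wild type vesicles in microRNAs of blood and serum. Of 6 listed, 5 were in the table, with hsa-miR-451a not analysed here. Their summed level was 133 to 171 normalised reads in wild type vesicles, 194 to 285 in ATG7-/- and 272 to 331 in ATG12-/- vesicles, and 33.0 to 90.1 over all cell libraries. The members did not move alike. hsa-miR-486-5p (48.1 to 58.1 in the wild type, 88.8 to 162 in ATG7-/-, 151 to 193 in ATG12-/- vesicles) and hsa-miR-150-5p (27.6 to 54.9, 60.7 to 79.6 and 78.2 to 105) were higher in both knockouts without overlap. hsa-miR-16-5p was lower in both (41.9 to 51.2, 26.4 to 28.0 and 8.27 to 41.5), and hsa-miR-223-3p and hsa-miR-122-5p overlapped the wild type. hsa-miR-223-3p was at 0 in all wild type and ATG12-/- cell libraries and present in every vesicle library. The part of serum RNA in the tRNA values was not tested.

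The 2 knockouts were compared directly in vesicles. Of 41 rows, 17 were lower in ATG12-/- than in ATG7-/- vesicles and none higher (0 higher at an unadjusted p under 0.05, and 0 in edgeR and DESeq2), where 23.3% of 850 features were lower and 26.6% higher. Glu-CTC-1-2 differed by -0.47 (SE 0.08, adjusted p = 0.000615) and Glu-TTC-4-2 by -0.47 (SE 0.09, adjusted p = 0.000621). The difference was larger in Glu-TTC-2-1, at -1.05 (SE 0.12, adjusted p = 2.15e-05), and Glu-TTC-1-1, at -0.77 (SE 0.12, adjusted p = 0.000245).

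The scaffold row (-0.40, SE 0.12) and Glu-CTC-2-1 (-0.28, SE 0.09) were called at adjusted p = 0.0141 and 0.0213. Glu-TTC-3-1 (-0.02, SE 0.11), Glu-TTC-5-1 (0.30, SE 0.20), Asp-GTC-1-1 (-0.30, SE 0.13) and Asp-GTC-2-1 (-0.02, SE 0.13) were not. Glu-CTC-2-1 lost its call without replicate 1 or 2 of either knockout (adjusted p = 0.0708 to 0.0864), in edgeR (-0.14, adjusted p = 0.207) and with library totals (adjusted p = 0.0546). The scaffold row lost its call in edgeR (-0.27, adjusted p = 0.143) and without ATG7-/- replicate 1 or ATG12-/- replicate 1 or 2 (adjusted p = 0.0512 to 0.0573).

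**Figure D5:**
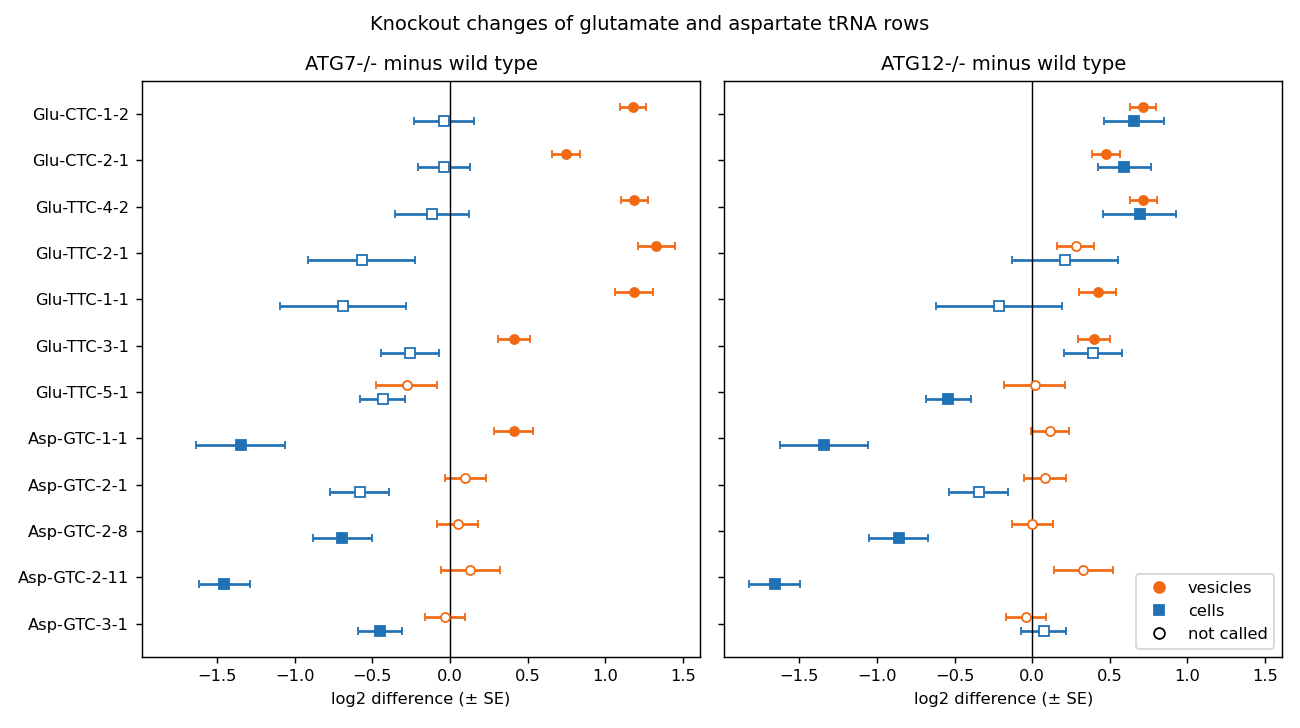
Log2 difference from the wild type, with SE, in vesicles (circles) and cells (squares) for 12 rows, in ATG7-/- (left) and ATG12-/- (right). Filled symbols are called; in vesicles glutamate rows other than Glu-TTC-5-1 lie to the right of 0, and in cells Asp-GTC-1-1 and Asp-GTC-2-11 lie at -1.35 and -1.45 in ATG7-/- and at -1.34 and -1.66 in ATG12-/-.

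In cells some aspartate rows were lower in both knockouts. In ATG7-/- cells 8 of 31 rows were lower, all of them Asp-GTC, and none higher, where 8.32% of 853 features were lower and 8.44% higher. With each isodecoder counted once, 2 of 13 rows were lower. No Glu row was called in limma's test (1 lower and 0 higher at an unadjusted p under 0.05, and 0 in edgeR and DESeq2). The median was -0.58 for 13 Asp-GTC rows and -0.08 for 18 Glu rows, against -0.09 over all features.

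Asp-GTC-1-1 held 183, 246 and 228 in ATG7-/- cells, below all wild type cells, and differed by -1.35 (SE 0.28, adjusted p = 0.00748). Asp-GTC-2-11 held 92.3, 137 and 126 and differed by -1.45 (SE 0.16, adjusted p = 0.000106). Asp-GTC-2-8 held 97.2, 155 and 106 and differed by -0.69 (SE 0.19, adjusted p = 0.0248). Asp-GTC-2-1 (404, 607 and 613) did not pass, at -0.58 (SE 0.19, adjusted p = 0.0504), although its values lay below those of the wild type.

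Glu-CTC-1-2 held 5112, 3423 and 5894 and overlapped the wild type (-0.04, SE 0.19), as did Glu-TTC-4-2 with 3443, 1908 and 4120 (-0.12, SE 0.24). Replicate 2, the lowest for both, widened these groups. Glu-TTC-5-1 held 2016, 2165 and 1621, below all wild type cells, at -0.43 (SE 0.14, adjusted p = 0.055).

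Asp-GTC-3-1 (83.2, 78.6 and 81.4) was called at -0.45 (SE 0.14, adjusted p = 0.0461), and this call was lost without any 1 of the 6 libraries (adjusted p = 0.052 to 0.139). Asp-GTC-2-8 lost its call without wild type replicate 1 or 2 or ATG7-/- replicate 1 or 3 (adjusted p = 0.0572 to 0.12). Factors from microRNAs shifted the median feature by -0.50, and 30 of the 31 rows, glutamate rows included, were then called lower. The count of lower rows was 3 without wild type replicate 2, 4 without ATG7-/- replicate 1 and 5 without wild type replicate 1 or 3.

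In ATG12-/- cells Glu-CTC rows were called higher and some Asp-GTC rows lower, while the few Glu-TTC calls went both ways. Of 31 rows, 10 were higher, namely 8 Glu-CTC and 2 Glu-TTC rows, and 6 were lower, namely 5 Asp-GTC rows and Glu-TTC-5-1, where 7.50% of 853 features were higher and 18.2% lower. The share of rows called lower was thus close to that over all features. Gene copies are not all separate measurements, and with each isodecoder counted once 4 of 13 rows were higher and 2 lower. Asp-GTC-1-1 held 378, 191 and 145, below all wild type cells, at -1.34 (SE 0.28, adjusted p = 0.00527). Asp-GTC-2-11 held 97.8, 118 and 89.5, at -1.66 (SE 0.16, adjusted p = 3.04e-05), and Asp-GTC-2-8 held 103, 119 and 91.6, at -0.86 (SE 0.19, adjusted p = 0.00652). These 3 kept their calls without any 1 library, and Asp-GTC-2-8 lost its call with TMM factors from features other than tRNA (-0.55, adjusted p = 0.111).

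Asp-GTC-2-1 (788, 590 and 527) overlapped the wild type at -0.35 (SE 0.19), and Asp-GTC-3-1 (136, 107 and 109) at 0.07 (SE 0.14). Glu-TTC-5-1 held 1640, 1808 and 1913, below all wild type cells, at -0.54 (SE 0.15, adjusted p = 0.0179). Glu-CTC-1-2 held 8978, 7193 and 6814, above all wild type cells, at 0.66 (SE 0.19, adjusted p = 0.0258), and Glu-TTC-4-2 held 6263, 5190 and 4454, at 0.69 (SE 0.24, adjusted p = 0.0456). Replicate 1 was the highest of its group for Asp-GTC-1-1, Glu-CTC-1-2 and Glu-TTC-4-2.

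The glutamate calls in ATG12-/- cells were close to the threshold: no row was called higher without wild type replicate 1 or 3 or ATG12-/- replicate 1, and 1 was without ATG12-/- replicate 2. The differences themselves moved less, with Glu-CTC-1-2 at 0.61, 0.62, 0.54 and 0.70 and Glu-TTC-4-2 at 0.68, 0.63, 0.56 and 0.70 in these 4 fits. With factors from microRNAs, which shifted the median feature by -0.21, 0 rows were higher and 7 lower, and Glu-TTC-5-1 lost its call without wild type replicate 1 or 2 or ATG12-/- replicate 1 or 2 (adjusted p = 0.051 to 0.081).

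Whether the knockout changes differed between vesicles and cells was tested with an interaction term over all 18 libraries. For ATG7, 29 of 41 rows had a more positive change in vesicles and none a more negative one (0 at an unadjusted p under 0.05, and 0 in edgeR and DESeq2), where 26.3% of 905 features were called in the first direction and 28.7% in the second. They were 9 of 9 Glu-CTC, 9 of 15 Glu-TTC and 10 of 15 Asp-GTC rows and 1 Glu-GAA row. In both interaction tests the 41 rows include 10, both Glu-GAA rows among them, that did not reach the filter in cells alone. These 10 were tested because of their level in vesicles, and their cell changes rest on at most 17.2 normalised reads in any cell library. The difference was 1.22 (SE 0.25, adjusted p = 0.000328) for Glu-CTC-1-2, which had risen in vesicles, and 1.76 (SE 0.35, adjusted p = 0.000243) for Asp-GTC-1-1, whose change in cells was -1.35.

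For ATG12, 5 of 41 rows were called, all Asp-GTC and all more positive in vesicles, where 14.4% of 905 features were called in that direction and 12.0% in the other. The share of rows called was therefore not above that over all features. Asp-GTC-2-11 differed by 1.99 (SE 0.26, adjusted p = 1.7e-05) and Asp-GTC-1-1 by 1.46 (SE 0.35, adjusted p = 0.00409). Glu-CTC-1-2, at 0.06 (SE 0.25), and Glu-TTC-4-2, at 0.02 (SE 0.29), did not pass, and no glutamate row was called (1 higher and 0 lower at an unadjusted p under 0.05, and 0 in edgeR and DESeq2). Library totals shifted the median feature by -0.46 for ATG7 and -0.58 for ATG12 and gave 15 higher and 0 lower rows for ATG7 and 1 higher and 2 lower for ATG12.

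Relations between rows also differed between compartments. The ratio of Glu-TTC-4-2 to Glu-CTC-1-2 was 0.675 ± 0.0307, 0.643 ± 0.0755 and 0.691 ± 0.0345 in wild type, ATG7-/- and ATG12-/- cells (SD, n = 3 each). In vesicles it was 0.940 ± 0.00486, 0.946 ± 0.00564 and 0.942 ± 0.00111, so the most abundant rows of the 2 glutamate anticodons held almost equal reads in every vesicle library. The ratio of Asp-GTC-1-1 to Asp-GTC-2-1 was 0.713 ± 0.170 in wild type cells, 0.411 ± 0.0404 in ATG7-/- and 0.360 ± 0.107 in ATG12-/- cells, and 5.33 ± 1.53, 6.45 ± 0.665 and 5.32 ± 0.563 in the vesicles.

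The 15 rows with a mean under 100 normalised reads, 4 of them never tested, included all that RefSeq lists as pseudogenes and both Glu-GAA rows. In wild type vesicles against cells, 11 were tested, with differences from -0.54 to 4.43. Only 3 of them passed the filter in cells alone, and of these 1 was higher, 1 lower and 1 not called. In cells alone 10 of the 41 rows tested elsewhere did not reach the filter, and held at most 17.2 normalised reads in any cell library.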

How the data were processed

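Per the labels' protocols, a SMARTer small RNA kit was used with 12 cycles of PCR, and sequencing gave 50 bp from 1 end. The submitters' processing notes name DESeq2, bedtools, Bowtie2 2.3 and cutadapt 2.3, and the builds GRCh38 and hg38. The counting of reads that match several genes, the annotation and the filters are not given in the sources used here. The deposited table holds a scaled signal: in every library 100.0% of values were whole multiples of 1 step within 1e-06, so whole reads were recovered and the values taken as reads per size factor. The labels call the replicates biological; the chi-square of replicate pairs, 5.56 to 91.4 per degree of freedom, exceeded sampling noise, so none was counted as a copy. PCR copies are not independent molecules.

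The members and lists were chosen with earlier results of these data known. Main tests were limma 3.58.1 in R 4.3.3 with an intensity trend on log2(value + 1), for features reaching 10 in at least 3 fitted libraries, with Benjamini-Hochberg adjustment over all features and calls at 0.05, two-sided. Vesicle comparisons used the 9 vesicle libraries, cell comparisons the 9 cell libraries, and the others all 18. edgeR 4.0.16 and DESeq2 1.42.0 on the recovered reads, other pseudocounts (0.5 and 5), filters and scalings, a replicate block and leaving out each library were alternatives. The fit was tested on simulated data. Shares and ratios are means with SD and no test.

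The text names the highest row of each isodecoder group. After the values were seen, this was narrowed to groups whose highest row had a mean of at least 100 over the 18 libraries. The lowest and highest row by wild type difference of a group split in call were added. Rows named by chromosome or scaffold carry no isodecoder number and were kept apart. Lists were described by counts and medians only. Sequences of the other rows were not used here.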

Additional observations from a re-analysis of the deposited data

Results flagged for a closer look

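For these rows the change from the wild type differed between vesicles and cells by limma's interaction term, with a more positive change in vesicles in each. The values are log2 differences, vesicle change minus cell change. For ATG7-/- they were 1.22 (Glu-CTC-1-2), 0.79 (Glu-CTC-2-1), 1.88 (Glu-TTC-1-1), 1.90 (Glu-TTC-2-1), 0.67 (Glu-TTC-3-1), 1.30 (Glu-TTC-4-2), 0.68 (Glu-TTC-8-1), 1.30 (Glu-TTC-chr1-138) and 0.96 (tRNA-Glu-TTC-chr1_KI270713v1_random-1). Among aspartate rows they were 1.76 (Asp-GTC-1-1), 0.68 (Asp-GTC-2-1), 0.74 (Asp-GTC-2-8) and 1.59 (Asp-GTC-2-11). For ATG12-/- they were 1.46 (Asp-GTC-1-1), 0.86 (Asp-GTC-2-8) and 1.99 (Asp-GTC-2-11).

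Glu-TTC-8-1 did not reach the filter in cells alone, so its change in cells rests on low values. It lost its ATG7 call without any 1 of 10 of the 12 wild type and ATG7-/- libraries, vesicles and cells (adjusted p = 0.0535 to 0.122). Asp-GTC-2-1 lost it without wild type cell replicate 2, ATG7-/- cell replicate 1 or wild type vesicle replicate 2 (adjusted p = 0.0564, 0.0737 and 0.0664), Asp-GTC-2-8 without wild type cell replicate 2 (adjusted p = 0.0529) and Glu-TTC-3-1 without ATG7-/- cell replicate 2 (adjusted p = 0.0533). The other calls listed held without any 1 library. In edgeR the ATG7 calls of Asp-GTC-2-1, Asp-GTC-2-8, Glu-TTC-3-1, Glu-TTC-8-1 and the scaffold row were lost (0.37, 0.46, 0.39, 0.35 and 0.63), as was the ATG12 call of Asp-GTC-2-8 (0.54). Over all Asp-GTC rows edgeR called 4 for ATG7 where limma called 10. Library totals ended those same 6 calls and also those of Glu-CTC-2-1 for ATG7 (0.32) and Asp-GTC-1-1 for ATG12 (0.88). TMM factors over all features ended those of Asp-GTC-2-1, Asp-GTC-2-8, Glu-TTC-3-1 and Glu-TTC-8-1 for ATG7 (0.42, 0.48, 0.41 and 0.42) and of Asp-GTC-2-8 for ATG12 (0.55). Groups of 3 libraries are too small for a test of single outlying libraries.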

How the results depend on the processing

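Counts of called rows stayed within 1.5 times those reported except as follows. With each isodecoder counted once, fewer rows are tested: 22, 21 and 21 of 23 were called between vesicles and cells (wild type, ATG7-/-, ATG12-/-), 12 for ATG12-/- and 8 between the knockouts in vesicles, 2 and 6 of 13 for ATG7-/- and ATG12-/- cells, and 13 and 1 for the ATG7 and ATG12 interactions. TMM factors from features other than tRNA gave 40 (ATG7-/-), 35 (ATG12-/-) and 36 (between knockouts) called rows in vesicles. For ATG7-/- cells the count was 5 without a filter, 4 with library totals, 5 with TMM over all features, 30 with TMM from microRNAs, 4 with TMM from features other than tRNA, 5 in edgeR, 5 in DESeq2, 5 with the replicate block, and 3 to 11 without 1 library. For ATG12-/- cells it was 7 without a filter, 7 with TMM from microRNAs, and 5 to 13 without 1 library. The ATG7 interaction gave 15 with library totals and 19 in edgeR, and the ATG12 interaction 3 with library totals, 2 with TMM over all features and 3 in edgeR. Where not stated, the cause was not tested.

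Among named rows, these turned sign. Vesicles minus cells with library totals: Glu-TTC-3-1 to -0.63, -0.43 and -1.21 (wild type, ATG7-/-, ATG12-/-), Asp-GTC-2-8 to -0.071 (wild type), Asp-GTC-2-1 to -1.71 and -2.08 (ATG7-/-, ATG12-/-), Asp-GTC-2-11 to -1.90 and Asp-GTC-3-1 to -0.65 (ATG12-/-). With TMM factors from features other than tRNA: Asp-GTC-2-1 to 1.05 (wild type) and Asp-GTC-2-11 to 2.40 (ATG7-/-) in vesicles minus cells, Asp-GTC-3-1 to 1.18 and Glu-TTC-5-1 to 0.93 (ATG7-/- vesicles), and Asp-GTC-3-1 to 0.51 (ATG12-/- vesicles). A further 154 of 2968 values changed sign without being called in either fit.

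The replicate numbers showed no clear pairing of the samples: of 24 correlations between same-numbered libraries 3 were over 0.1, from -0.23 to 0.16, and 9 were the highest for their library. Each wild type vesicle library correlated best with its own number in ATG12-/- vesicles (0.144, 0.091 and 0.095). With 3 libraries per group, pairing is not excluded. Apart from ATG7-/- cells, the replicate block kept each count within 1.5 times, and Glu-TTC-chr1-138 (ATG12-/- cells, adjusted p = 0.0515), Asp-GTC-3-1 (ATG7-/- cells, adjusted p = 0.08) and Glu-TTC-8-1 (ATG7 interaction, adjusted p = 0.0592) lost their calls. In cells alone, 10 rows did not reach the filter and were not tested at this depth.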
